A study of Bos taurus with 72 samples.

Results

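In bovine mammary epithelial cells (BMECs), mRNA was compared between complete medium and medium without essential amino acids (EAA). ENSBTAG00000054808 and ENSBTAG00000001595 had the 2 largest falls in complete medium on the log2(FPKM + 1) scale. They were chosen by that measured fall, as 2 of the 29550 genes in the deposited table, and both passed the filter of a mean of at least 1 FPKM that left 12121 genes. FPKM are reads scaled to the length of the gene and to the size of the library. They put genes and libraries on 1 scale but do not correct for differences in composition between libraries. What either gene encodes and where it lies was not looked up, because the table gives Ensembl identifiers without symbols or coordinates and 0 of the 37063 rows of the reference table used here hold an Ensembl identifier. For the same reason no sequence of either gene is printed.

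The cells were primary BMECs at passage 6, grown out of mammary tissue of dairy cows and freed from fibroblasts by their different sensitivity to trypsin. They were starved of serum overnight and then held for 6 h in 1 of 12 media, with 6 libraries per medium and 72 in all. NEG was DMEM-F12 lacking every EAA, POS was complete DMEM-F12, and the other 10 media were NEG with a single EAA restored to its level in POS, namely arginine (Arg), histidine (His), isoleucine (Ile), leucine (Leu), lysine (Lys), methionine (Met), phenylalanine (Phe), threonine (Thr), tryptophan (Trp) or valine (Val). All groups were wild type, and all shared the growth medium with serum and hormones before the starvation. The 6 libraries of a medium are described as biological replicates, but neither the labels nor the paper say whether they came from separate animals or cultures, so a p-value measures the spread between these libraries, which may in part be technical. The labelled cell type could not be checked against epithelial and fibroblast markers without gene symbols.

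Cells that lack an essential amino acid accumulate uncharged tRNA, which activates the kinase GCN2 and, through the transcription factor ATF4, raises genes of amino acid transport and synthesis. The kinase complex mTORC1 is held active by amino acids, among them leucine and arginine, and promotes translation and growth. Mammary epithelium draws large amounts of EAA from blood for the synthesis of milk protein, and both systems are studied there as links between feeding and milk yield. The genes of the amino acid response that were listed by symbol could not be counted here.

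Between 12006111 and 18602428 reads per library fell on genes, with a median of 15865509. In the number of genes above 0, 3 libraries stood apart, with 10495 in Leu replicate 1, 11838 in Arg replicate 4 and 13537 in POS replicate 4, against 15211 to 18393 in the other 69 libraries. Both Leu replicate 1 and Arg replicate 4 held very low values of ENSBTAG00000054808 and ENSBTAG00000001595, so values that turn on them are given with and without them. The paper lists Leu replicate 1 and Arg replicate 4 with the lowest mapping efficiencies of all libraries, well below the rest. The labels do not say whether these libraries failed or were mixed up, and this was not tested. The values with all 60 single-EAA libraries thus hold only if both are sound and are what their labels say. No pair of libraries held identical values.

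In NEG, ENSBTAG00000054808 stood at 53.0, 106.9, 48.4, 50.01, 54.9 and 55.3 FPKM in replicates 1 to 6. In POS, the 6 values were 2.52, 0.759, 1.01, 0, 1.68 and 1.40 FPKM, which rest on 0 to 73 reads per library against 1277 to 2474 in NEG. Every POS library was below every NEG library, and the lowest NEG library was 19.3 times the highest POS library. Replicate 2 of NEG lay far above the other 5, whose mean was 52.3 ± 3.01 FPKM (SD), against 61.4 ± 22.4 FPKM with it. Among the genes tested, 88.5% had a lower NEG mean than ENSBTAG00000054808.

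For ENSBTAG00000001595 the NEG libraries held 502.6, 1050.4, 491.0, 395.5, 499.2 and 515.4 FPKM, so it was the more abundant of the pair per length, and 98.8% of the genes tested had a lower NEG mean. The POS libraries held 55.9, 14.8, 28.3, 6.21, 27.2 and 22.4 FPKM, on 39 to 429 reads. The POS and NEG ranges did not overlap here either, with the lowest NEG library at 7.07 times the highest POS library. Replicate 2 of NEG was again the high library and replicate 4 of POS the low one, and without NEG replicate 2 the NEG mean was 481 ± 48.5 FPKM in place of 576 ± 237 FPKM. In RNA from whole cultures, fewer cells that express a gene and less RNA of it per cell cannot be told apart.

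On log2(FPKM + 1), POS minus NEG was -4.85 (SE 0.28) for ENSBTAG00000054808 and -4.61 (SE 0.41) for ENSBTAG00000001595. Without POS replicate 4 these were -4.64 and -4.28, and without NEG replicate 2 they were -4.68 and -4.42. The gene just outside the rule, the third largest fall, had -4.58 (SE 0.19), and the fourth had -4.004 (SE 0.10). With all libraries, ENSBTAG00000001595 and the third gene lay closer together than the SE of either. In all, 4 genes fell by over 4 on this scale and 17 by over 3, while the median of all genes tested was -0.06. Ranges apart with POS lower were found in 12.4% of the genes tested. These values chose the pair and are a description. The choice holds for this scale, on which the pseudocount of 1 shrinks falls to low values. In mean FPKM, ENSBTAG00000001595 went from 576 to 25.8, the third gene from 57.6 to 1.48 and the sixth from 16.0 to 0.337. As a ratio of means, the third and the sixth gene fell further than ENSBTAG00000001595.

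**Figure D1:**
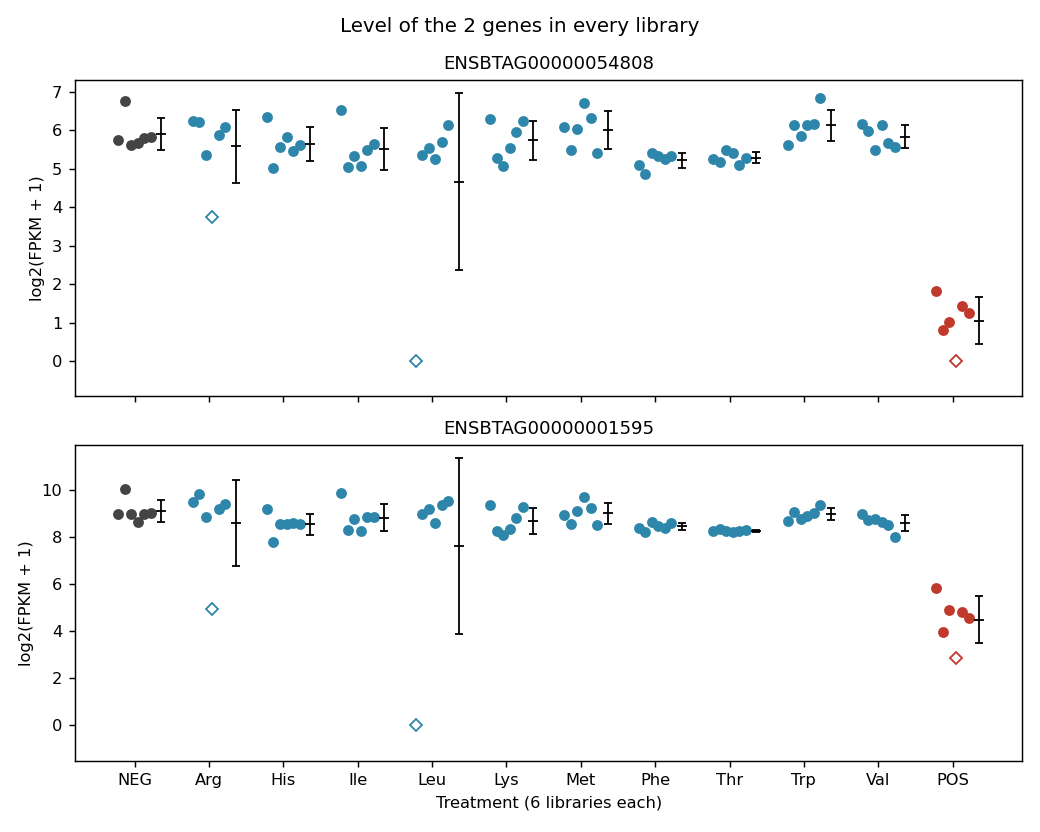
Level of ENSBTAG00000054808 (top) and ENSBTAG00000001595 (bottom) as log2(FPKM + 1), on the vertical axis, in each of the 72 libraries by treatment, with replicates 1 to 6 from left to right, NEG in grey, single-EAA treatments in blue and POS in red. Open diamonds are Leu replicate 1, Arg replicate 4 and POS replicate 4, and bars show the mean ± SD of 6 libraries; apart from Leu replicate 1 and Arg replicate 4, no single-EAA library came near the POS libraries.

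No single EAA took either gene down to its level in complete medium. Of the 60 single-EAA libraries, 1 was at or below the highest POS library for ENSBTAG00000054808, which was Leu replicate 1, and 2 were for ENSBTAG00000001595, which were Leu replicate 1 and Arg replicate 4. The next lowest library for ENSBTAG00000001595, replicate 2 of His at 220 FPKM, was 3.93 times the highest POS library. For ENSBTAG00000054808, with Arg replicate 4 second lowest at 12.4 FPKM, the third lowest was Phe replicate 2 at 28.1 FPKM, or 11.2 times the highest POS library. The 6 libraries of a treatment were all above all POS libraries in 9 of the 10 single-EAA treatments for ENSBTAG00000054808, all but Leu, and in 8 of the 10 for ENSBTAG00000001595, all but Leu and Arg. The share of all genes tested that lay apart from POS and higher was 4.95% for Arg, 9.03% for His, 8.94% for Ile, 7.24% for Leu, 9.64% for Lys, 8.09% for Met, 13.8% for Phe, 13.1% for Thr, 8.13% for Trp and 7.39% for Val.

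Against NEG, the single-EAA libraries were spread around and below its range. For ENSBTAG00000054808, 33 of the 60 lay below the lowest NEG library, 26 within the NEG range and 1 above it. For ENSBTAG00000001595, 29 lay below and 31 within. Leu replicate 1 and Arg replicate 4 were among those below for both genes, which leaves 31 and 27 of the 58 others. Ordered by their medians, 10 of the 11 pairs of neighbouring treatments overlapped in range for each gene, and the exception for both was the step from Thr, the lowest single-EAA treatment, down to POS.

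Thr and Phe gave the lowest medians among the single EAA for both genes. With Thr, ENSBTAG00000054808 ranged from 33.1 to 43.9 FPKM with a median of 37.6, and all 6 libraries were below all 6 NEG libraries. ENSBTAG00000001595 with Thr ranged only from 291 to 317 FPKM, with a median of 299, and again lay wholly below NEG. Its SD over the Thr libraries was 8.90 FPKM, or 2.95% of the mean, where the other single-EAA treatments and NEG had 10.5% to 55.1%. With Phe, ENSBTAG00000054808 ranged from 28.1 to 41.3 FPKM (median 38.1), wholly below NEG, and ENSBTAG00000001595 from 297 to 399 FPKM (median 341), which reached just into the NEG range. Of all genes tested, 6.17% lay apart from NEG and lower with Thr and 9.41% with Phe. The Thr and Phe libraries also had many genes above 0, from 17571 to 17956, where NEG had 16596 to 17707. Of the other single-EAA libraries, only Met replicate 1, Trp replicate 1 and Val replicate 3 exceeded 17571. This measure and the treatment cannot be told apart here, and its part in the low levels was not tested.

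His, Ile, Lys and Val gave ranges that ran from below NEG into it. For ENSBTAG00000054808 the lowest, median and highest values were 31.1, 47.0 and 79.8 FPKM with His, and 32.3, 41.6 and 90.3 FPKM with Ile. Lys gave 32.7, 53.3 and 77.8 FPKM, and Val gave 43.8, 56.4 and 70.5 FPKM. Against the NEG median of 53.9 FPKM, the medians of this gene were lower with His, Ile and Lys and higher with Val. For ENSBTAG00000001595 the corresponding values were 220, 370 and 584 FPKM with His, and 300.4, 446 and 916 FPKM with Ile. Lys gave 266, 381 and 643 FPKM, and Val gave 252, 406 and 494 FPKM. The NEG median of this gene, 501 FPKM, was above all 4 of these medians, with wide overlap of the libraries.

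Met and Trp gave the highest medians of ENSBTAG00000054808. Its lowest, median and highest values were 41.3, 65.2 and 103.7 FPKM with Met, and 48.4, 69.8 and 113.0 FPKM with Trp. Replicate 6 of Trp was the highest of all 72 libraries for this gene. ENSBTAG00000001595 was at 363, 514 and 816 FPKM with Met and at 407, 489 and 655 FPKM with Trp, where the medians were close to that of NEG.

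Arg and Leu each held 1 library that stood apart. In Arg, ENSBTAG00000054808 had 12.4 FPKM in replicate 4, on 279 reads, and 39.7 to 74.0 FPKM in the other 5. ENSBTAG00000001595 had 29.3 FPKM there, on 175 reads, and 452 to 895 FPKM in the other 5, whose mean of 660 ± 165 FPKM was above the NEG mean. In Leu, both genes were at 0 reads in replicate 1, which allows up to 0.152 FPKM of ENSBTAG00000054808 and 0.574 FPKM of ENSBTAG00000001595 if 3 reads is taken as the limit of a count of 0. The other 5 Leu libraries held 36.8 to 68.7 FPKM of ENSBTAG00000054808 and 384 to 726 FPKM of ENSBTAG00000001595, on at least 1005 reads. Of the 2819 genes with at least 1000 reads in each of those 5, 8 were at 0 in Leu replicate 1, both of these genes among them, and 1 of 2852 such genes was at 0 in Arg replicate 4.

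How far a single EAA went along the way from NEG to POS can be written as a share of the fall, with NEG at 0% and POS at 100%. On the log2(FPKM + 1) scale, Thr covered 12.8% ± 3.08 (SD, n = 6) of the fall of ENSBTAG00000054808 and 18.5% ± 0.912 (SD, n = 6) of that of ENSBTAG00000001595. Phe covered 14.2% ± 4.13 (SD, n = 6) and 14.2% ± 3.28 (SD, n = 6). On the linear scale the same levels read as larger shares, 38.6% and 49.8% for Thr and 41.5% and 41.4% for Phe, because the fall from NEG to POS spans several doublings and Thr and Phe each covered less than the first. Without NEG replicate 2, the log2 shares of Thr became 9.60% and 15.0%, and those of Phe 11.1% and 10.5%. Without Leu replicate 1 and Arg replicate 4, the other 8 treatments lay between -4.58% and 7.97% for ENSBTAG00000054808, and between -5.13% and 12.4% for ENSBTAG00000001595, with SDs of 5.33 to 12.5 percentage points. A negative share is a mean above NEG. With all 6 libraries, Leu covered 25.7% ± 47.5 (SD) of the fall of ENSBTAG00000054808 and 32.5% ± 81.0 (SD) of that of ENSBTAG00000001595, and Arg 6.70% ± 19.8 (SD) and 10.8% ± 39.7 (SD), where the SD exceeds the share.

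On log2(FPKM + 1), Thr minus NEG was -0.62 (95% interval -0.97 to -0.27) for ENSBTAG00000054808 and -0.85 (-1.23 to -0.47) for ENSBTAG00000001595. Phe minus NEG was -0.69 (-1.06 to -0.32) and -0.65 (-1.06 to -0.25). For ENSBTAG00000001595, His minus NEG was -0.57 (-1.08 to -0.06) and Val minus NEG -0.51 (-0.98 to -0.04), and without NEG replicate 2 they were -0.38 (-0.78 to 0.02) and -0.32 (-0.65 to 0.01). Trp minus NEG of ENSBTAG00000054808 was 0.22 (-0.23 to 0.68), and 0.39 (0.03 to 0.76) without NEG replicate 2. Leu minus NEG was -1.24 and -1.498 with all 6 libraries and -0.31 and 0.02 without replicate 1. Arg minus NEG was -0.33 and -0.50 with all 6 and 0.04 and 0.24 without replicate 4, so for ENSBTAG00000001595 the sign of both differences, and for ENSBTAG00000054808 that of Arg, turned on 1 library. These comparisons share the NEG libraries on which the genes were selected, a choice that favours high NEG values and so differences below NEG. The intervals show the spread between libraries only and are not read as a test.

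**Figure D2:**
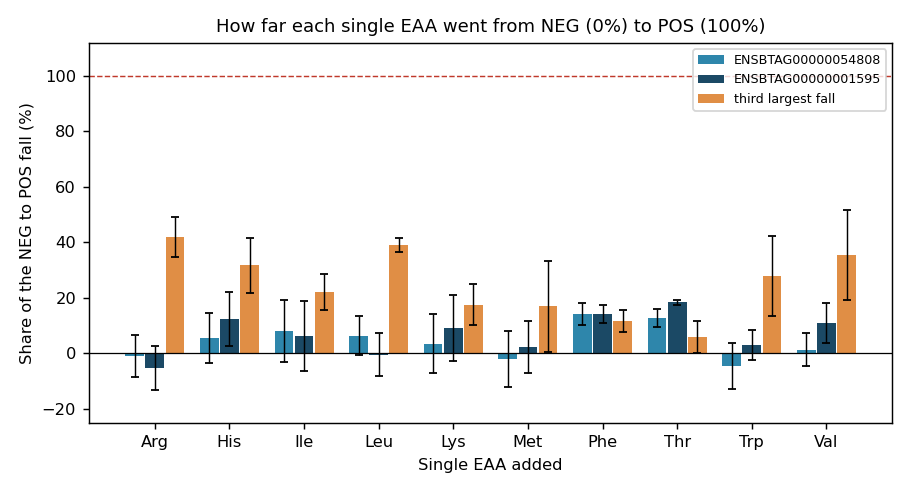
Share of the fall from NEG (0%) to POS (100%, dashed line) on the log2(FPKM + 1) scale, on the vertical axis in percent, for each single EAA, without Leu replicate 1 and Arg replicate 4. Bars are means and whiskers the SD over 5 or 6 libraries, for ENSBTAG00000054808, ENSBTAG00000001595 and the gene with the third largest fall; the pair reached at most 18.5%, while the third gene reached 42.0% with Arg and 5.97% with Thr.

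The gene with the third largest fall behaved in another order. Its mean in NEG was 57.6 ± 12.6 FPKM and in POS 1.48 ± 0.684 FPKM (SD, n = 6), close to the levels of ENSBTAG00000054808. With single EAA it was lowest with Arg (12.9 ± 5.33 FPKM) and Leu (13.7 ± 5.00 FPKM) and highest with Thr (47.3 ± 8.03 FPKM) and Phe (39.0 ± 5.58 FPKM). Averaged over the 10 treatments without Leu replicate 1 and Arg replicate 4, single EAA covered 25.1% of its fall, against 4.44% for ENSBTAG00000054808 and 7.13% for ENSBTAG00000001595. Over the next 50 largest falls this average had a median of 18.8% and ran from -9.61% to 86.2%, and 5 of the 50 lay below ENSBTAG00000054808 and 9 below ENSBTAG00000001595. This is a description, since the falls chose all of these genes.

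The 60 single-EAA libraries took no part in the choice of the genes and were tested on their own. With limma and Benjamini-Hochberg adjustment over the 12121 genes, the F test over the 10 treatments gave an adjusted p of 0.18 for ENSBTAG00000054808 and 0.83 for ENSBTAG00000001595, where 75.9% of all genes tested were called at an adjusted p under 0.05. Without Leu replicate 1 and Arg replicate 4, an alternative chosen after the data were seen, the adjusted p became 0.0021 and 0.00041, and 90.9% of all genes were then called. With sample weights, which kept all 60 libraries but gave Leu replicate 1 a weight of 0.0182 and Arg replicate 4 one of 0.0266 against 0.0795 to 3.44 for the others, the limma adjusted p was 6.0e-07 and 2.8e-06, and 96.8% of all genes were called. A difference among single EAA was thus found for both genes once these 2 libraries were left out or given little weight, and not with equal weights. So many genes were called in each fit that a call says little about this pair.

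Each single EAA was then set against the mean of the other 9 on log2(FPKM + 1). With all 60 libraries, 1 of the 10 contrasts of ENSBTAG00000054808 was called, Leu at -0.999 (95% interval -1.73 to -0.27, limma adjusted p = 0.018), as were 35.1% of all genes in that direction. It rested on Leu replicate 1, without which it was -0.07 (limma adjusted p = 0.83). None of the 10 contrasts of ENSBTAG00000001595 was called by limma in the 60 libraries at equal weights. Of these, Leu at -1.05 (95% interval -2.19 to 0.09) had the lowest unadjusted p, 0.071, and none was under 0.05. It was called when Leu replicate 5 or Leu replicate 6 was left out (limma adjusted p = 0.0468 and 0.0415, with 34.6% and 34.9% of all genes called lower), which left Leu replicate 1 as 1 of 5, and it was 0.47 without Leu replicate 1.

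In the 58 libraries without Leu replicate 1 and Arg replicate 4, ENSBTAG00000054808 was lower than the mean of the other 9 with Phe, at -0.53 (95% interval -0.86 to -0.19, limma adjusted p = 0.0072), and with Thr, at -0.45 (-0.78 to -0.11, adjusted p = 0.015). Trp and Met lay above the mean of the others for this gene, at 0.49 (0.15 to 0.82, adjusted p = 0.091) and 0.35 (0.01 to 0.68, adjusted p = 0.14), and did not pass the threshold. ENSBTAG00000001595 was lower than that mean with Thr, at -0.58 (-0.91 to -0.26, adjusted p = 0.0018), and higher with Arg, at 0.63 (0.28 to 0.98, adjusted p = 0.0057). Phe at -0.36 (-0.69 to -0.04, adjusted p = 0.051) and Leu at 0.39 (0.04 to 0.74, adjusted p = 0.065) did not pass the threshold for that gene, although Phe did under equal total reads in the same 58 libraries (-0.39, adjusted p = 0.0335), where 27.2% of all genes were called lower with Phe. The share of all genes called in the same direction was 29.5% for Thr, 24.9% for Phe and 13.9% for Arg, so calls with Thr and Phe were common. Without Leu replicate 1 alone, Phe of ENSBTAG00000054808 was called as well (-0.49, limma adjusted p = 0.042), with 21.8% of all genes called lower. The Thr and Phe values were below 0 for both genes, and a call of only 1 of them does not show that the 2 genes differ.

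With sample weights on all 60 libraries, more contrasts passed. Against the mean of the other 9, ENSBTAG00000054808 was lower with Phe, at -0.47 (limma adjusted p = 4.4e-05), Thr, at -0.41 (adjusted p = 0.00037), and Ile, at -0.38 (adjusted p = 0.023), and higher with Trp, at 0.57 (adjusted p = 0.0037), and Met, at 0.45 (adjusted p = 0.0084). ENSBTAG00000001595 was lower than that mean with Thr, at -0.52 (adjusted p = 3.2e-05), and Phe, at -0.30 (adjusted p = 0.0105), and higher with Arg, at 0.51 (adjusted p = 0.00099), Leu, at 0.42 (adjusted p = 0.019), and Met, at 0.37 (adjusted p = 0.045). Thr and Phe were thus low, and Met high, for both genes relative to the other single EAA in this fit, which is not a change from NEG, since Met minus NEG was 0.10 for ENSBTAG00000054808 and -0.11 for ENSBTAG00000001595. The shares of all genes called in these directions were 33.1% lower with Phe, 35.1% lower with Thr, 12.2% lower with Ile, 8.69% higher with Trp, 23.4% higher with Met, 40.6% higher with Arg and 26.4% higher with Leu.

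**Figure D3:**
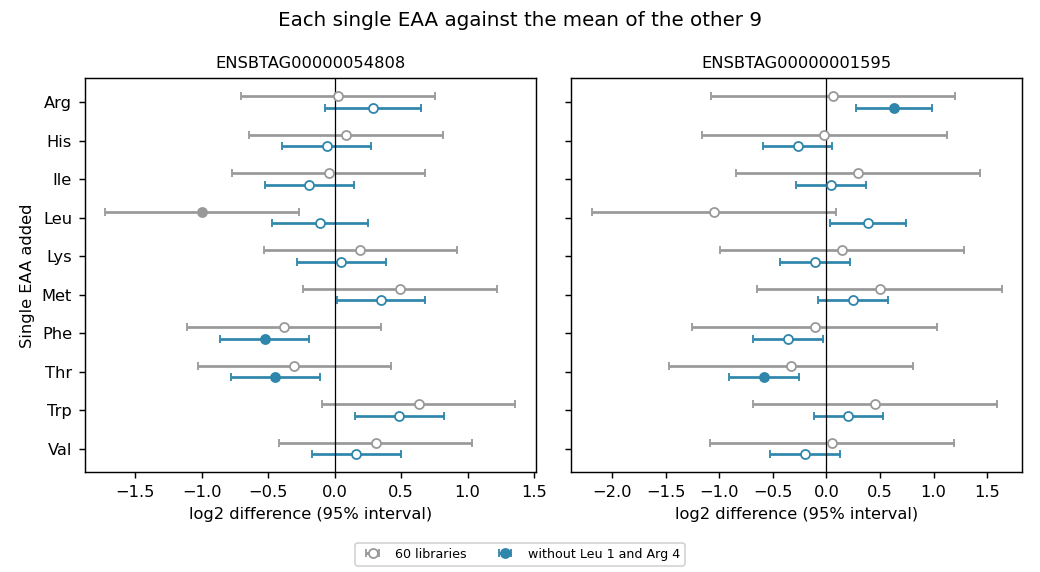
Difference of each single EAA from the mean of the other 9 on log2(FPKM + 1), on the horizontal axis with 95% intervals, for ENSBTAG00000054808 (left) and ENSBTAG00000001595 (right), in all 60 libraries (grey) and without Leu replicate 1 and Arg replicate 4 (blue). Filled points had a limma adjusted p under 0.05; Thr lay below 0 for both genes in both sets, and Leu moved from -0.999 to -0.11 and from -1.05 to 0.39.

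The 2 genes moved together from library to library. After the treatment means were removed, their log2(FPKM + 1) values correlated over the 60 single-EAA libraries with r = 0.97 and rho = 0.87 (permutation p = 1e-05 for each, the smallest that 100000 permutations can give, and 2e-05 for r after Benjamini-Hochberg adjustment over 2 correlations). The 2 libraries farthest from the median were Leu replicate 1 and Arg replicate 4, and r without them was 0.91 with rho = 0.84 (permutation p = 1e-05 for each). Leaving out the next 2, Ile replicate 1 and Met replicate 4, gave r = 0.89. A library with more of ENSBTAG00000054808 than its replicates thus had more of ENSBTAG00000001595 as well. Among the 12120 other genes tested, each of the 2 had the other as its closest correlate by r within treatments, in the 60 libraries and in the 58. By rho in the 60 libraries, ENSBTAG00000001595 was the closest to ENSBTAG00000054808. In the other direction, ENSBTAG00000054808 was in place 3 for ENSBTAG00000001595.

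Inside single treatments, with 6 libraries each and no test, r was between 0.90 and 0.998 in NEG, POS and 8 of the single-EAA treatments, 0.53 in Val and -0.35 in Thr. Thr was the treatment in which ENSBTAG00000001595 hardly varied. Without their low libraries, Arg and Leu still had r = 0.92 and 0.91, and POS had 0.89. In NEG, where r was 0.97, it was 0.53 without replicate 2, the library that was high for both genes.

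Depth measures of the libraries moved with the levels in a direction that turned on Leu replicate 1 and Arg replicate 4. With treatment means removed, the number of genes above 0 had r = 0.68 with ENSBTAG00000054808 and 0.80 with ENSBTAG00000001595 in the 60 libraries (permutation p = 0.027 and 0.025, adjusted p = 0.027 for each over 4 relations), but rho only 0.08 and 0.23 (permutation p = 0.65 and 0.26), and 0.08 and 0.33 without the 2 farthest libraries on this scale, which were these 2. In the 58 libraries, where treatment means were taken anew, its r was -0.42 with ENSBTAG00000054808 (permutation p = 0.0063, adjusted p = 0.025 over 4 relations, and rho = -0.41 with permutation p = 0.004) and -0.30 with ENSBTAG00000001595 (permutation p = 0.067, adjusted p = 0.13, and rho = -0.32 with permutation p = 0.031). Without Ile replicate 1 and Val replicate 3, the 2 farthest libraries, these became -0.29 and -0.21. The relation with ENSBTAG00000001595 in the 58 thus passed by rank before adjustment and not by r. Reads on genes had r = 0.47 and 0.56 in the 60 libraries (permutation p = 0.022 and 0.011, adjusted p = 0.027 for each, and rho = 0.18 and 0.32 with permutation p = 0.19 and 0.02), 0.08 and 0.22 without Leu replicate 1 and Arg replicate 4, the 2 farthest, and -0.09 and 0.04 in the 58 (permutation p = 0.52 and 0.79, adjusted p = 0.69 and 0.79, and rho = -0.10 and 0.02 with permutation p = 0.46 and 0.91). When the number of genes above 0 was also removed, the 2 genes still correlated with r = 0.91 in the 58 libraries.

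**Figure D4:**
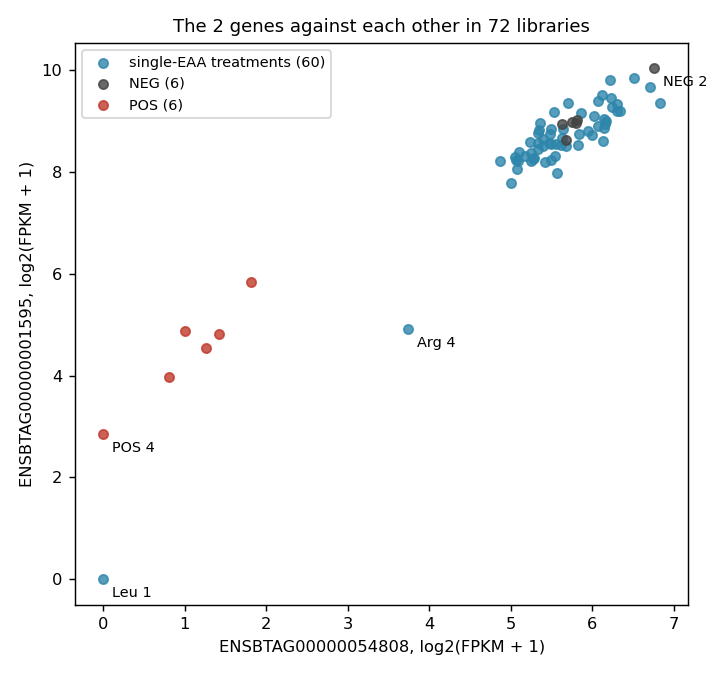
Level of ENSBTAG00000001595 (vertical axis) against ENSBTAG00000054808 (horizontal axis), both as log2(FPKM + 1), with 1 point for each of the 72 libraries. The POS libraries and Leu replicate 1 and Arg replicate 4 lie low for both genes, NEG replicate 2 lies high for both, and the other single-EAA libraries (blue) overlap the other NEG libraries.

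Between treatments the agreement was looser and depended on the same 2 libraries. The 10 single-EAA means correlated with r = 0.92 (permutation p = 0.00036, the same after adjustment over 2 correlations) and rho = 0.79 (permutation p = 0.0083). Without the 2 treatments farthest from the median, Leu and Trp, r was 0.76 (permutation p = 0.03). With Leu replicate 1 and Arg replicate 4 left out of the means, r was 0.67 (permutation p = 0.037) and rho 0.61 (permutation p = 0.068), and ENSBTAG00000001595 was then only the 266th closest of 12120 genes to ENSBTAG00000054808. With Phe and Trp also left out, r was 0.63 (permutation p = 0.091).

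The level of ENSBTAG00000001595 relative to ENSBTAG00000054808 was not the same in all media. The ratio of their FPKM was 9.30 ± 0.774 in NEG (SD, n = 6), and in single-EAA media it ran from 6.97 ± 1.58 in Val and 7.22 ± 0.902 in Trp (SD, n = 6) to 11.8 ± 1.19 in Leu (SD, n = 5, without replicate 1, which had no reads of either). In Arg it was between 9.50 and 12.2 in 5 libraries and 2.37 in replicate 4. In POS it was 20.4 ± 4.95 in the 5 libraries with reads of both, with a lowest value of 16.0, above the highest ratio of any other medium, 12.8. The POS ratio rests on few reads and on libraries that chose the genes.

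A permutation test of the difference between the 2 genes over the 10 single-EAA treatments gave F = 0.52 (p = 0.92) in the 60 libraries and F = 14.1 (p = 1e-05, the smallest the permutations can give) in the 58. Without Leu replicate 1 alone it gave F = 2.86 (permutation p = 0.0041). That library had no reads of either gene, so its difference of 0 comes from the pseudocount and was not measured. The difference was 1.18 in Arg replicate 4 and 2.41 to 3.65 in the 58 libraries, so the result in the 60 rests largely on these 2 values. In the 58 libraries the log2(FPKM + 1) of ENSBTAG00000001595 minus that of ENSBTAG00000054808 was highest in Leu (3.52 ± 0.147) and Arg (3.38 ± 0.147) and lowest in Val (2.75 ± 0.306) and Trp (2.82 ± 0.182). Leu and Arg held relatively more of ENSBTAG00000001595, and Val and Trp relatively more of ENSBTAG00000054808.

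Likeness of every other gene was measured as its r averaged over the 2 genes, and these correlations share libraries and are a description. Within treatments over the 60 libraries, the closest was ENSBTAG00000054053 with a mean r of 0.95, and the most opposite was ENSBTAG00000051082 with -0.92. Both stood apart in the 2 low libraries. ENSBTAG00000054053 had 1.57 FPKM in Leu replicate 1 and 6.30 in Arg replicate 4, against 12.4 to 54.2 in the other 58, and ENSBTAG00000051082 had 40.3 and 32.0 FPKM against 11.03 to 20.8. Without the 2 libraries the mean r became 0.71 and -0.50, and other genes took the highest and lowest place, with 0.87 and -0.72. ENSBTAG00000054053 was also lower in POS (9.46 ± 1.28 FPKM) than in NEG (20.5 ± 6.45 FPKM), with ranges apart, and ENSBTAG00000051082 was higher in POS (21.3 ± 7.59 FPKM against 11.2 ± 3.89 FPKM), also with ranges apart.

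Between the 10 treatment means, the closest gene was ENSBTAG00000024482 with a mean r of 0.86, and the most opposite ENSBTAG00000051672 with -0.89. Neither kept its place without the 2 libraries, where the mean r was -0.07 and -0.40 and other genes were highest and lowest, with 0.81 and -0.83. ENSBTAG00000024482 was a weak gene with 1.11 to 2.73 FPKM in the 58 libraries, 0 in Leu replicate 1 and 6.52 FPKM in Arg replicate 4. ENSBTAG00000051672 was listed at 56.9 FPKM in Leu replicate 1 and at 0 to 2.81 FPKM in the 58 libraries, on a recovered length of 67 bp.

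The lists of like genes differed between the 2 sets of libraries. Of the 50 genes most alike within treatments, 1 was shared between the 60 libraries and the 58. In the 60, 44 of the 50 were lower in POS than in NEG, and in the 58, 32 of the 50, against 54.1% of all genes tested. Between treatments in the 58 libraries, 5 of the 50 most alike genes were lower in POS and 27 were higher with ranges apart, where 9.68% of all genes tested were. So the genes whose means followed ENSBTAG00000054808 and ENSBTAG00000001595 across single EAA in that set mostly did not fall with them in complete medium.

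Whether the other genes that fell in POS followed the pair across single-EAA libraries depended on the 2 low libraries. For the next 50 largest falls, the median of the mean r within treatments was 0.52 in the 60 libraries and -0.39 in the 58, against 0.20 and -0.04 over all genes tested. Between treatments it was 0.17 and -0.51, against 0.06 and -0.09. In the 58 libraries, 3 of these 50 genes had a mean r over 0.5 within treatments, near the 7.73% over all genes tested, and the highest was 0.84. For the third largest fall the mean r was -0.31 within and -0.60 between treatments in the 58 libraries.

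**Figure D5:**
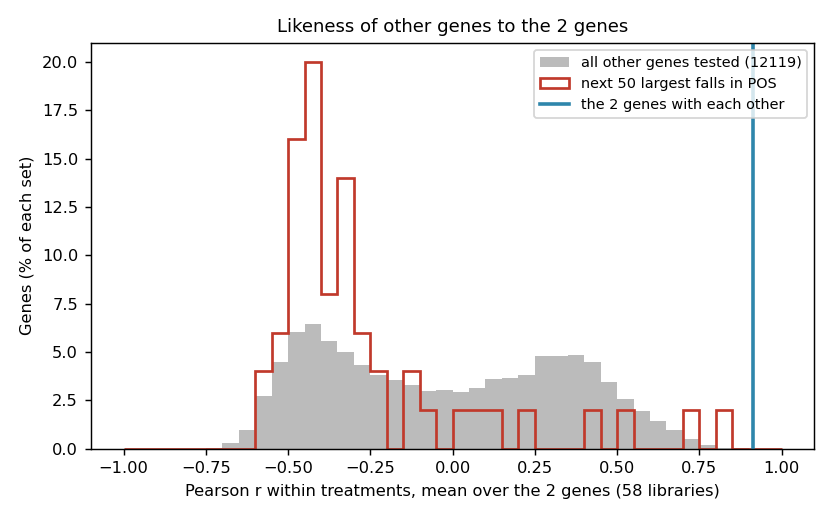
Pearson r within treatments over 58 single-EAA libraries, averaged over ENSBTAG00000054808 and ENSBTAG00000001595 (horizontal axis), as the percentage of genes in each interval (vertical axis), for the 12119 other genes tested (grey) and the next 50 largest falls in POS (red line). The blue line at 0.91 is the r of the pair with each other; most of the 50 lie below 0, with a median of -0.39.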

How the data were processed

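RNA-seq of 72 BMEC libraries was used. The authors mapped reads to the bovine genome and deposited FPKM per gene and library. The submitters' processing notes name HISAT2 2.0.5, StringTie 1.3.3b, featureCounts 1.5.0-p3 and DESeq2 1.20.0. The genome build was not given in the sources used here, and the labels and the paper name different library kits and culture plates. All 72 columns were matched to samples by name.

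Whole reads were recovered from the deposited FPKM of all 23683 genes above 0 in some library, with 100.0% of values within 0.003 of a whole number. They were used for depth, for limits on counts and for 1 alternative test. Tests used log2(FPKM + 1) for genes averaging 1 FPKM or more, with the limits of low counts covering counting error only, since PCR copies were not marked. The pseudocount of 1 understates changes of low values.

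Tests were run in the 60 single-EAA libraries with limma 3.58.1 in R 4.3.3, with a trended prior, Benjamini-Hochberg adjustment over 12121 genes and a limit of 0.05. Correlations and the difference of the 2 genes used permutation tests with 100000 draws (Python 3.11.15, numpy 2.4.6, pandas 2.3.3, scipy 1.17.1; figures by matplotlib 3.10.9). Scripts were tested on simulated data. The 2 genes, lists and tests were chosen with earlier results of these data known. Genes named for likeness are the highest and lowest mean r within and between treatments, and the third largest fall is given without its name.

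Alternatives were a pseudocount of 0.1, no filter, sample weights, equal total reads, voom on recovered reads, the replicate number as a block, the study's limits of an unadjusted p under 0.05 and a log2 difference over 1, each library left out in turn, and rank correlations, medians or all 72 libraries. Sets without Leu replicate 1 and Arg replicate 4 were in part added after the data were seen. Lists by gene symbol were not run. Same-numbered replicates of different treatments had correlations of deviations from -0.698 to 0.736, with a median of -0.0062, so no comparison was paired.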

Additional observations from a re-analysis of the deposited data

Results flagged for a closer look

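Of the 24 groups of 6 libraries (2 genes in 12 treatments), 5 held a library whose gap to the nearest other was above Dixon's 95% limit on the linear FPKM scale, where chance gives about 1.2. NEG replicate 2 was high for both genes, at 106.9 FPKM of ENSBTAG00000054808 and 1050.4 FPKM of ENSBTAG00000001595. Ile replicate 1 was also high for both, at 90.3 and 916.2 FPKM. Trp replicate 6 was high for ENSBTAG00000054808, at 113.0 FPKM.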

How the results depend on the processing

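For the F tests over 10 treatments, adjusted p-values moved across the threshold with sample weights (6.0e-07 for ENSBTAG00000054808 and 2.8e-06 for ENSBTAG00000001595), without Leu replicate 1 and Arg replicate 4 (0.0021 and 0.00041), and without both under equal total reads (0.00099 and 0.00019). Leaving out 1 library gave 0.044 (Leu replicate 1) to 0.26, and 0.52 to 0.87. Under the other alternatives these tests stayed on the same side.

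Of 200 values of the contrasts under alternatives, 160 kept direction and side, 18 changed sign, 18 passed and 4 fell below the threshold. Of these alternatives, other than leaving out 1 library, those that passed did so with sample weights or without both libraries, and the calls with weights are given above. Signs that changed for ENSBTAG00000054808 were His (-0.087 with sample weights, -0.060 without both libraries, -0.045 without both under equal totals), Ile (0.013 with a pseudocount of 0.1, 0.011 with voom) and Lys (-0.050 with weights). For ENSBTAG00000001595, in the order weights, without both, and without both under equal totals, they were Leu (0.42, 0.39, 0.40), Lys (-0.24, -0.10, -0.12) and Val (-0.17, -0.20, -0.14), with Ile at -0.14 under weights and His at 0.043 with a pseudocount of 0.1 and 0.027 with voom. Leu of ENSBTAG00000001595 had an adjusted p of 0.019 under weights, and the other sign changes did not pass the threshold. Leaving out 1 library changed the sign of Arg (-0.11 to 0.39), His (-0.056 to 0.21) and Ile (-0.24 to 0.046) of ENSBTAG00000054808, and of Arg (-0.18 to 0.80), His (-0.19 to 0.13), Leu (-1.43 to 0.47), Lys (-0.022 to 0.27) and Val (-0.12 to 0.17) of ENSBTAG00000001595. Leu of ENSBTAG00000054808 ran from -1.29 to -0.067, and its Phe contrast passed without Leu replicate 1 alone (-0.49, limma adjusted p = 0.042). Leu of ENSBTAG00000001595 passed without Leu replicate 5 or 6.

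The correlation between treatment means lost its call with medians (0.62, permutation p = 0.06), by rank without both libraries (0.61, permutation p = 0.068) and without Phe and Trp as well (0.63, permutation p = 0.091). The difference of the 2 genes passed without both libraries (F = 14.1) and ran from 0.45 to 2.86 when 1 library was left out. The mean r of ENSBTAG00000024482 turned to -0.072 without both, and that of ENSBTAG00000051672 to 0.024 with 12 means and 0.27 with 12 means without the 3 low libraries. The causes were not tested beyond the libraries named.

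With the replicate number as a block, the F tests had adjusted p-values of 0.22 and 0.85 and the 2 genes correlated within treatments with r = 0.98, so no call changed. Of the 60 libraries, 17 correlated best with their own number. The count expected without pairing was not computed, so this number does not show that replicate numbers are unrelated. Depth limits the POS values of ENSBTAG00000054808, which rest on at most 73 reads.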
